A study of Mus musculus with 6 samples.

Results

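The perineurium is the cellular sleeve around each fascicle of a peripheral nerve, and its P60 cells were selected here from single-cell libraries of the mouse sciatic nerve by the unique molecular identifiers (UMIs, each marking 1 captured mRNA molecule) of a few genes. A P60 barcode with 500 to 5000 detected genes was taken as a perineurial cell when it held at least 5 UMIs of Col1a2 and Dcn together, which mark nerve fibroblasts, and at least 3 UMIs of Slc2a1, Itgb4, Cldn1 and Msln together. It could hold at most 1 UMI of Sox9 and Osr2 together, at most 3 of Pi16 and Clec3b together, and none of Sox10, Pecam1 or Ptprc. This gave 1502 cells, which were 315, 626 and 561 cells in replicates 1, 2 and 3. They came from 8562 P60 cells with at least 5 UMIs of Col1a2 and Dcn (called fibroblast-gene cells below), from 12602 P60 cells kept and from 24337 cells kept in the whole series.

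The series held 6 droplet libraries, 3 from postnatal day 1 (P1) and 3 from postnatal day 60 (P60), that is, newborn and young adult mice. All mice were C57bl/6J and carried P0Cre, which recombines in Schwann cells, a Cre-dependent eYFP reporter and a DsRed reporter driven by a ubiquitous beta-actin promoter, so both ages shared every allele and no group was treated. Each library was 1 suspension pooled from males and females, so a value is a mean over animals and cannot be split by mouse. DsRed-positive cells were sorted at both ages, and at P1 some of the eYFP-positive Schwann cells were left out, so shares of all cells in a library were set in part by the sort. For comparison, the 7060 other P60 fibroblast-gene cells were used. Of these, 509 held at least 2 UMIs of Sox9 and Osr2, fewer than 4 of Pi16 and Clec3b, and none of Sox10, Pecam1 or Ptprc. They are called Sox9/Osr2 cells, since Sox9 and Osr2 mark the endoneurial layer around the axons. Another 4501 held at least 4 UMIs of Pi16 and Clec3b, fewer than 2 of Sox9 and Osr2, and none of Sox10, Pecam1 or Ptprc. They are called Pi16/Clec3b cells, since Pi16 and Clec3b mark the outer, epineurial layer.

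As background, perineurial cells form concentric flat layers joined by tight junctions and coated on both faces by a basal lamina, and together they close off the endoneurial space from the surrounding tissue. Nutrients such as glucose have to pass through them by transporters, among which the glucose transporter encoded by Slc2a1 has long served as a perineurial marker. In development the sheath depends on hedgehog signalling from Schwann cells to the surrounding mesenchyme, and the hedgehog receptor gene Ptch1 is itself a target of that pathway.

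The libraries held between 3495 and 4197 kept cells at P1 and between 3435 and 4586 at P60. P60 replicate 3 stood apart. Its kept cells had a median of 3627 UMIs, against 5561 and 4982.5 in replicates 1 and 2, and its haemoglobin signal was lower (Hbb-bs at 0.293 CPM in the other fibroblast-gene cells, against 215.7 and 177.5 CPM, where CPM are the UMIs of a gene per 1000000 UMIs of the cells summed in a library). The perineurial cells had medians of 6773, 6198 and 4259 UMIs in replicates 1, 2 and 3, and the other fibroblast-gene cells 6070, 5342 and 3825. The median mitochondrial share of their UMIs was 3.92%, 4.36% and 6.39%, against 2.66%, 2.88% and 3.33%, so it was higher in the perineurial cells in each library, and its part in the differences described here was not tested. Pairs of libraries shared 13 to 32 barcodes, of which at most 1 was a perineurial cell in both.

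**Figure D1:**
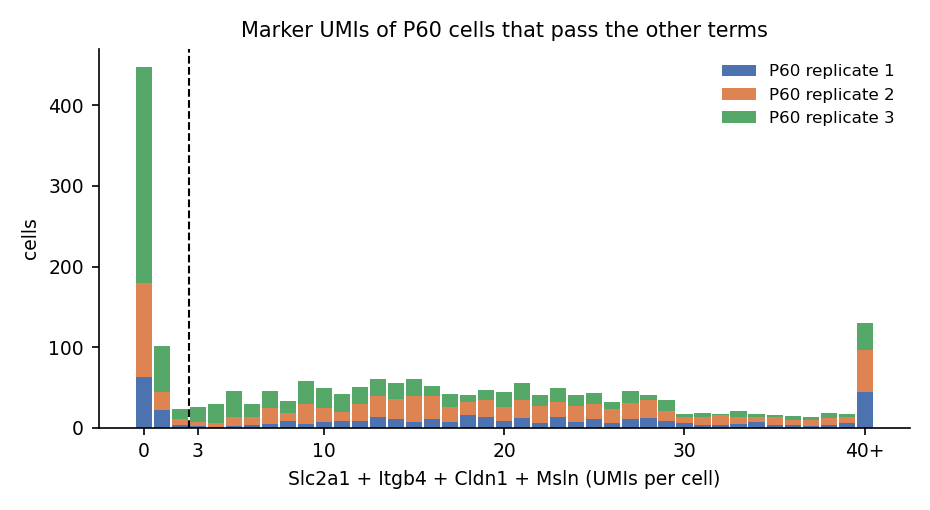
Number of P60 cells (y axis) by their summed UMIs of Slc2a1, Itgb4, Cldn1 and Msln (x axis, UMIs per cell), for cells that meet every other term of the rule, stacked by library. The dashed line is the threshold of 3, and 447 cells lie at 0 while 23 lie at 2 and 26 at 3, so few cells sit at the threshold.

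The 4 genes chose the cells, so their values describe the choice and were not tested. Their summed UMIs had a median of 23, 20 and 15 in the 3 libraries and reached 82 in 1 cell. Of the 1502 cells, 1052 held UMIs of all 4 genes, 340 of 3 of them, 98 of 2 and 12 of a single one, and those 12 all came from replicate 3. Just inside the threshold 26 cells held 3 UMIs. Among the cells that met every other term, 23 held 2 UMIs, 101 held 1 and 447 held 0, and 267 of those 447 were in replicate 3. As a side effect of the rule, 1157 of the 7060 other fibroblast-gene cells also held 3 or more UMIs of the 4 genes and failed elsewhere: 723 had more than 3 UMIs of Pi16 and Clec3b, 228 more than 1 of Sox9 and Osr2, and 371 held Sox10, Pecam1 or Ptprc. Differences from the other fibroblast-gene cells were therefore also computed against the others with a marker sum under 3, an alternative added after the data were seen.

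In the perineurial cells, Slc2a1 was at 1211, 1137 and 1028 CPM in replicates 1 to 3. Itgb4, an integrin subunit of attachment sites to basal lamina, was at 828, 834 and 1027 CPM. Cldn1, a tight junction claudin, was at 474, 502 and 801 CPM, and Msln, which encodes the surface protein mesothelin, at 965, 897 and 604.5 CPM. Replicate 3 was the highest library for Itgb4 and Cldn1 and the lowest for Slc2a1 and Msln. Slc2a1 was not specific to the sheath, because cells with endothelial genes held 959 ± 43.5 CPM (SD, n = 3 libraries).

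Kcnj13, which encodes an inwardly rectifying potassium channel, was the one given marker that the rule did not use. Its level in the perineurial cells was 364.5, 386 and 253 CPM. In the other fibroblast-gene cells it was 54.6, 66.9 and 46.5 CPM, and in those with a marker sum under 3 it was 2.96, 5.88 and 4.88 CPM. The perineurial value was the highest of the 3 in every library. The last values were close to those in cells with immune genes (1.59 CPM on average) and endothelial genes (2.96 CPM). With every cell thinned to 1500 UMIs, 34.25% of the perineurial cells held a Kcnj13 UMI (95% exact binomial interval 31.8 to 36.7, counting error only), against 4.81% of the other fibroblast-gene cells and 0.283% of cells with immune genes, which served as a background. Without thinning the shares were 67.6% of perineurial cells (median depth 5790 UMIs) and 0.705% of immune-gene cells (3941 UMIs). On this check the data did not go against the label. Kcnj13 (chr1:87386363-87394729, minus strand of GRCm38) has no other gene on its strand, whereas Slc2a1 (chr4:119108711-119137983, plus strand) overlaps the microRNA gene Mir1957a. Cldn1 (chr16:26356642-26371841, minus), Itgb4 (chr11:115974709-116008412, plus) and Msln (chr17:25748613-25754378, minus) were the other markers.

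**Figure D2:**
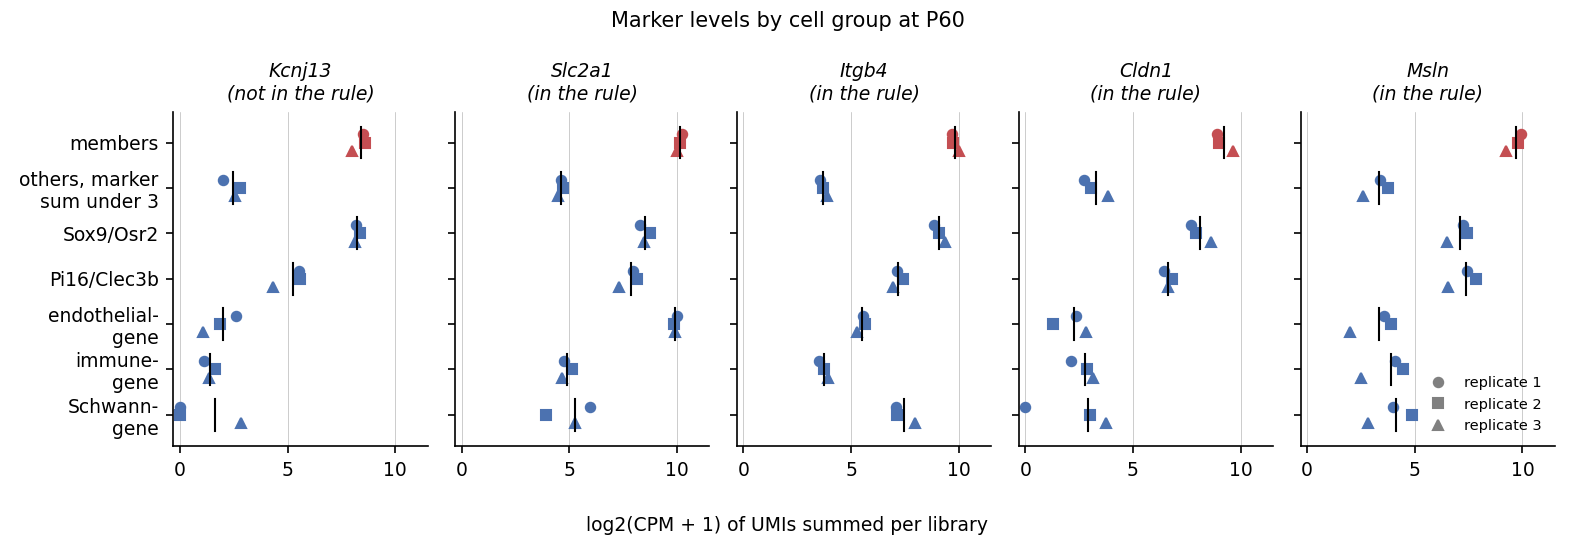
Level of the 5 markers in P60 cell groups, as log2(CPM + 1) of the UMIs summed per library (x axis), with a point for each of the 3 libraries and a line at their mean; the perineurial cells are the row named members. Kcnj13 averaged 334.5 CPM in the members and 4.57 CPM in the other fibroblast-gene cells with a marker sum under 3, while Slc2a1 was nearly as high in endothelial-gene cells as in the members.

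Kcnj13 was not limited to the selected cells. The Sox9/Osr2 cells held 298 ± 25.6 CPM (SD, n = 3), within 0.10 (SE 0.09) of the perineurial cells on the log2 scale. That level came from a mixed group: the 179 of the 509 Sox9/Osr2 cells with a marker sum of 3 or more held 649 ± 61.0 CPM of Kcnj13, and those with less held 6.82 ± 7.40 CPM. The same held for the Pi16/Clec3b cells, of which 571 of 4501 had a marker sum of 3 or more, with 173 CPM of Kcnj13 on average in those and 2.66 CPM in the rest. The ceilings on Sox9, Osr2, Pi16 and Clec3b thus left out cells that carry the perineurial markers, and how many of these were doublets was not tested. Unless stated otherwise, values against the Sox9/Osr2 or Pi16/Clec3b cells below use these mixed groups, with cells of any marker sum.

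The next paragraphs describe the genes that differed between the perineurial cells and the other P60 fibroblast-gene cells. Summed counts per library were fitted with edgeR's quasi-likelihood test with library as a block, leaving out the 13 genes of the rule. Choosing cells by marker genes makes genes that go with those markers differ, so a call says only that a difference repeated over 3 libraries. Of 13224 genes, 7304 were called at an adjusted p (Benjamini-Hochberg) under 0.05, which is 55.2% of those tested, and 3199 (24.2%) also differed by at least 2-fold, 1065 higher (8.05%) and 2134 lower (16.1%). The median log2 change of all genes was -0.02. Counts of gene lists below use the 2-fold rule, and since the rule chose these cells nothing is read from them against these shares.

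Junction genes hold neighbouring perineurial cells together. Of 38 tight and adherens junction genes tested, 17 were higher and 11 lower. Ocln, which encodes the tight junction protein occludin, was at 26.8, 24.6 and 21.6 CPM in the perineurial cells and at 4.88, 4.34 and 3.23 CPM in the others, a log2 difference of 2.53 (SE 0.16). Mpzl2, an epithelial-type adhesion protein, was at 296, 264 and 310 CPM against 41.9, 56.7 and 49.7 CPM (2.53, SE 0.09). Both genes were higher in the perineurial cells of every library, and against the others with a marker sum under 3 the log2 differences were 5.84 and 6.57. Cxadr, a junction-associated receptor, was at 87.9, 102 and 117 CPM against 13.8, 19.2 and 21.0 CPM. Against the Sox9/Osr2 cells alone, Mpzl2 was higher by 1.00 (SE 0.10). Ocln differed from those cells by 0.54 (SE 0.26) and Cxadr by -0.08 (SE 0.11), with neither called. Cldn22, a claudin gene singled out after its values were seen, was at 1221, 1147 and 902 CPM against 240, 286.5 and 174 CPM (2.22, SE 0.06). It lies inside Wwc2 on the opposite strand, and how strand entered the counting is not stated in the sources used here. Tjp1, the scaffold ZO-1, was also chosen after its values were seen and was at 245, 235 and 340 CPM against 80.9, 92.1 and 96.2 CPM.

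Claudins differed in direction. Cldn5, the claudin of endothelial barriers, was at 27.2, 32.7 and 19.2 CPM in the perineurial cells and at 392, 297.5 and 160 CPM in the others (-3.37, SE 0.10), and Cldn10 was at 0.892, 0.246 and 0.687 CPM against 40.2, 36.8 and 18.7 CPM. The others included cells with a Pecam1 UMI, and endothelial markers moved with Cldn5: all 12 tested differed by at least 2-fold, 11 of them lower in the perineurial cells, with summed levels of 257 to 292 CPM against 586 to 1078 CPM. With the other cells that held Sox10, Pecam1 or Ptprc UMIs left out, the Cldn5 difference was -0.17 and no longer called, and from the Pi16/Clec3b cells it was -0.02 (SE 0.11). The exception among endothelial markers was Cdh5, the endothelial cadherin, which was named after its values were seen. It was higher in the perineurial cells, at 167, 171 and 222 CPM against 71.6, 71.5 and 61.7 CPM.

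Transport and energy genes supply the nerve across the sheath. Slc16a1, the monocarboxylate transporter that carries lactate and pyruvate, was at 655, 619 and 704 CPM in the perineurial cells and at 129, 152 and 112 CPM in the others (2.31, SE 0.09). Ldhb, the lactate dehydrogenase subunit of oxidative tissues, was at 260, 280.0 and 173 CPM against 70.8, 79.8 and 63.6 CPM. The lowest perineurial library was above the highest of the others for both. Among 24 genes of glucose and lactate metabolism 3 were higher and 2 lower by 2-fold, and Pfkl, a glycolytic enzyme, averaged 57.7 CPM against 22.2 CPM. Of 30 potassium and ion genes 8 were higher and 11 lower. Besides Kcnj13, the ion transport regulator Fxyd6 (chosen after its values were seen) was at 2088, 2082 and 1237 CPM against 497, 571.5 and 283.5 CPM, whereas Fxyd5 was at 13.8, 15.3 and 8.93 CPM against 168, 159 and 97.4 CPM. Aqp1, a water channel that endothelial cells also express, averaged 9.89 CPM against 52.6 CPM, but differed from the Sox9/Osr2 cells by 0.39 (SE 0.39) and from the Pi16/Clec3b cells by -0.50 (SE 0.20), with neither called. Of 27 other transporter genes 6 were higher and 12 lower, and the ABC transporter genes Abca6, Abca8a and Abca9 and the glutamate transporter Slc1a3 were lower, with log2 differences between -5.21 and -3.68. Slc6a6, the taurine transporter, and Abcb1a, a drug efflux pump of tissue barriers, were noticed after the fact at 521 and 200 CPM on average, against 152 and 84.4 CPM.

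**Figure D3:**
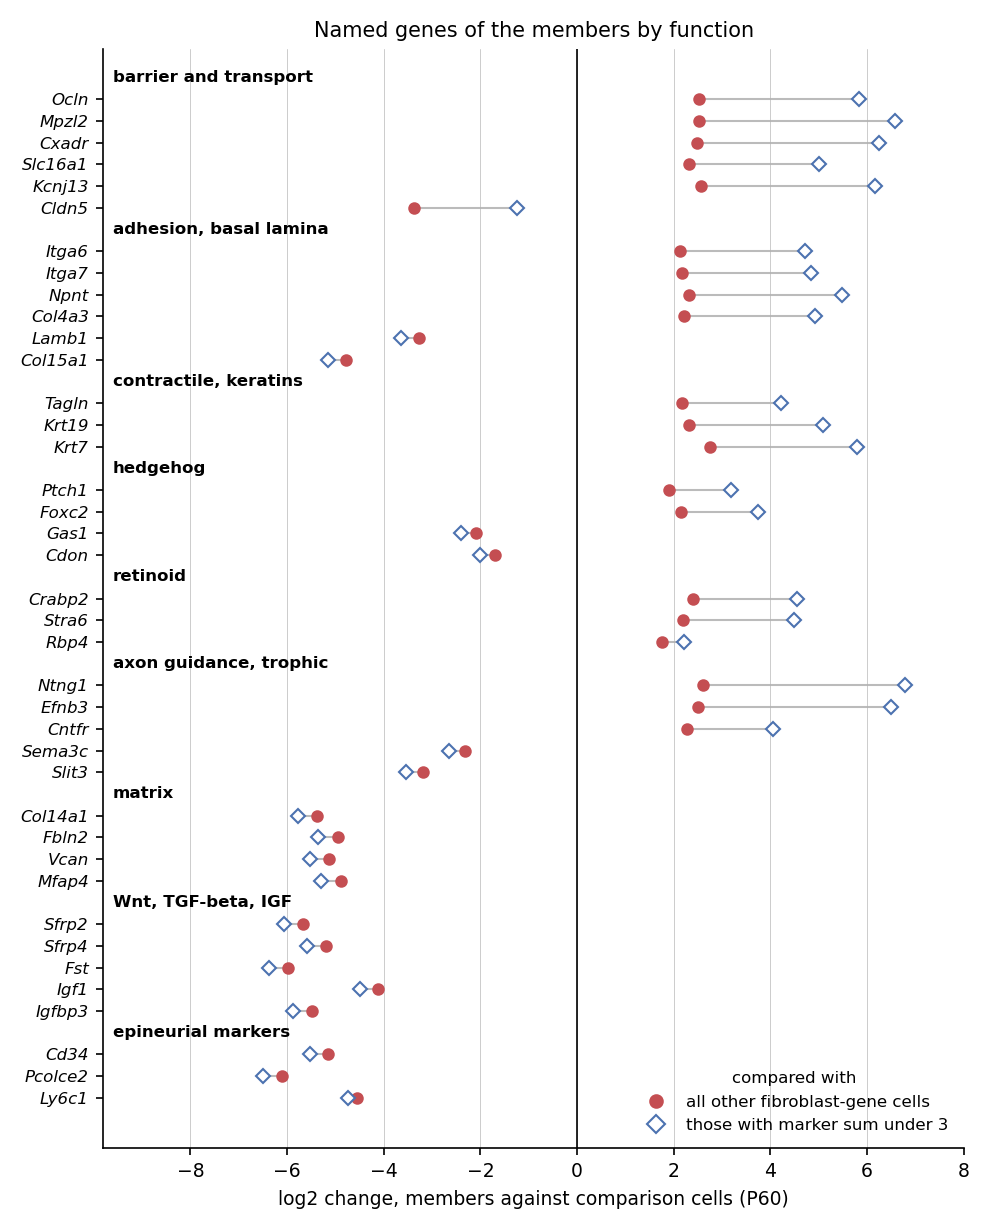
Log2 difference (x axis) between the perineurial cells (members) and other P60 fibroblast-gene cells for named genes grouped by function, against all 7060 others (filled circles) and against those with a marker sum under 3 (open diamonds). Genes higher in the perineurial cells lie further from 0 in the second comparison, as for Kcnj13 (2.56 and 6.17) and Ntng1 (2.60 and 6.78), while genes that were lower hardly move, and Cldn5 alone among those shown moves towards 0.

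Adhesion to the basal lamina was the next group. Among 21 integrin and related adhesion genes 8 were higher and 4 lower by 2-fold. Itga6, the partner of Itgb4 in attachment to laminin, was at 485, 464 and 693 CPM in the perineurial cells and at 101, 122 and 144 CPM in the others (2.13, SE 0.07), so its largest value was in the library where Itgb4 was also highest. Itga7, another laminin-binding subunit, was at 287, 249.5 and 264 CPM against 58.1, 64.5 and 53.2 CPM. The integrins that differed the other way were Itga11, a receptor for fibrillar collagen, at 0.656 CPM on average against 38.8 CPM, and Itgb3. Of 26 basal lamina genes 11 were higher and 7 lower. Npnt, a basement membrane ligand of integrins, was at 124, 117 and 128 CPM against 21.0, 29.2 and 21.8 CPM, and Col4a3, a type IV collagen chain, averaged 41.9 CPM against 8.61 CPM. Lamb1, a laminin chain, averaged 8.41 CPM against 81.9 CPM, and Col15a1, a collagen found next to basement membranes, 7.53 CPM against 203 CPM.

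Of 27 actin, keratin and other cytoskeletal genes tested 18 were higher and 2 lower by 2-fold. Tagln, an actin-binding protein of smooth muscle and contractile fibroblasts, was at 2244, 2176 and 2327 CPM in the perineurial cells and at 443, 597.5 and 455 CPM in the others (2.17, SE 0.07). Krt19 and Krt7, keratins of simple epithelia, averaged 384 and 63.6 CPM against 76.1 and 9.29 CPM. Myh11, the smooth muscle myosin, was at 4.91, 7.87 and 7.21 CPM against 11.8, 13.8 and 50.4 CPM. For each of these genes the library values of the perineurial cells lay outside those of the others, which says nothing of single cells. Krt7 was lower in replicate 3 (43.6 CPM) than in replicates 1 and 2 (70.5 and 76.8 CPM). Mural markers were mixed, with 2 of 10 higher and 6 lower by 2-fold and summed levels of 805 to 942 CPM against 495 to 523 CPM. The pericyte genes Rgs5 and Kcnj8 were among the lower ones, at 9.21 and 1.61 CPM on average. Vtn, vitronectin, made up most of the sum and was at 780, 777 and 540 CPM against 224, 242 and 143 CPM, a gene named after its values were seen.

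Of 16 genes of the hedgehog pathway tested, 6 were higher and 4 lower by 2-fold. The receptor gene Ptch1 was at 373, 431 and 681 CPM in the perineurial cells and at 98.3, 111 and 185 CPM in the others (1.90, SE 0.05). Foxc2, a forkhead factor, was at 148, 144 and 89.6 CPM against 31.4, 32.7 and 20.6 CPM. The pathway effector Gli1, chosen after its values were seen, averaged 53.9 CPM against 16.2 CPM. The co-receptor genes Gas1 and Cdon, whose proteins help the ligand bind, were lower, at 138, 104 and 147 CPM against 572, 523 and 532.5 CPM for Gas1, and at 18.3, 12.6 and 24.4 CPM against 47.9, 46.9 and 79.4 CPM for Cdon. For each of these 5 genes the library values of the perineurial cells lay outside those of the others. Ptch1 overlaps the transcript A930032L01Rik on its own strand, so part of its reads could belong to that gene.

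Against the Sox9/Osr2 cells, Ptch1 was lower in the perineurial cells, with a log2 difference of -0.89 (SE 0.07) from 884.5 CPM in the Sox9/Osr2 cells on average, and Foxc2 differed by -0.11 (SE 0.10). Gas1 and Cdon were higher by 1.95 (SE 0.15) and 1.92 (SE 0.46). Against the Pi16/Clec3b cells Ptch1 was higher by 2.83 (SE 0.10) and Gas1 lower (-2.59, SE 0.08). The order of Ptch1 levels was thus Sox9/Osr2 cells, then perineurial cells, then Pi16/Clec3b cells. For Gas1 it was Pi16/Clec3b cells at 718 CPM, perineurial cells at 130 CPM and Sox9/Osr2 cells at 32.2 CPM. Both comparison groups were mixed, with cells of any marker sum, so the order of the layers themselves need not be the same.

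Genes of retinoid handling came next. Of 20 tested, 7 were higher and 3 lower by 2-fold. Stra6, the membrane receptor that takes up retinol, was at 215, 216 and 160 CPM in the perineurial cells and at 43.9, 54.1 and 29.8 CPM in the others (2.19, SE 0.08). Crabp2, which carries retinoic acid to the nucleus, averaged 115 CPM against 21.7 CPM, and Rbp4, the secreted retinol carrier, 253 CPM against 73.9 CPM. All 3 were lowest in replicate 3 within the perineurial cells, and their library values lay above those of the others. Folr1, a folate receptor, was at 73.2, 67.9 and 56.3 CPM against 9.55, 16.4 and 7.52 CPM.

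Genes that act on axons followed no single direction. Ntng1, netrin G1, a membrane-anchored relative of the netrins, was at 728, 764 and 1244 CPM in the perineurial cells and at 108, 156 and 177 CPM in the others (2.60, SE 0.08), with the highest level in replicate 3. Efnb3, an ephrin ligand, was at 136, 146 and 163 CPM against 24.4, 27.9 and 25.0 CPM, and Cntfr, the receptor subunit for ciliary neurotrophic factor, at 345, 334 and 236 CPM against 66.4, 75.3 and 46.1 CPM. Sema3c and Slit3, secreted guidance cues, were lower, at 51.6 and 4.96 CPM on average against 256 and 41.8 CPM. In all, 9 of 38 genes were higher and 13 lower by 2-fold. The summed level nevertheless was higher, 5238 to 5661 CPM against 2029 to 2188 CPM, and the largest part of that gap was Gas6, a ligand of TAM receptors (named after its values were seen), at 3824, 3503 and 3072 CPM against 948, 1083 and 736 CPM.

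Genes of the interstitial matrix and of secreted signals follow. Of 43 genes of fibrillar collagens and interstitial matrix 4 were higher and 25 lower by 2-fold. Col14a1, a collagen that sits on collagen fibrils, was at 6.25, 7.14 and 7.90 CPM in the perineurial cells and at 279, 270 and 344.5 CPM in the others (-5.38, SE 0.09). Fbln2, Vcan and Mfap4, matrix genes of loose connective tissue, averaged 12.6, 3.18 and 6.86 CPM against 399, 106 and 196 CPM. Smoc2, a matricellular protein, went the other way, at 6008, 5456 and 3686 CPM against 1824, 1809 and 1154 CPM, and it differed from the Sox9/Osr2 cells by only -0.17 (SE 0.06). Of 29 genes of IGF, FGF and PDGF signalling 15 were lower and 2 higher, and of 38 of the TGF-beta and BMP pathway 15 were lower and 6 higher. Against the Sox9/Osr2 cells alone these lists had 2 lower and 5 higher of 18, and 5 lower and 5 higher of 29. Igf1 was at 24.5, 23.4 and 23.7 CPM against 423, 407 and 392 CPM, and Fst, the activin antagonist follistatin, averaged 2.85 CPM against 179 CPM. The summed level of the IGF, FGF and PDGF list was again higher in the perineurial cells (18390 to 22290 CPM against 11720 to 14030 CPM) through Igfbp6, an IGF-binding protein chosen after its values were seen, which averaged 13930 CPM against 6066 CPM.

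Wnt genes were divided between 2 sets of secreted regulators. Sfrp2 and Sfrp4, which bind Wnt ligands, were at 16.5 and 48.6 CPM in the perineurial cells on average and at 817 and 1745 CPM in the others, and the antagonist Dkk2 and the ligand Wnt2 were lower (-5.42 and -5.33). Another member of the same antagonist family, Sfrp5, and the ligands Wnt6 and Wnt10a were high, and these 3 genes were chosen after their values were seen. Sfrp5 was at 10790, 10290 and 6720 CPM against 1955, 2449 and 1130 CPM, Wnt6 at 575, 553 and 395 CPM against 106, 135 and 77.8 CPM, and Wnt10a averaged 99.2 CPM against 21.1 CPM. Over the list 10 of 31 genes were higher and 13 lower by 2-fold.

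The lists of transcription factors, chemokines and lipid genes each had more lower than higher genes. Of 34 factors tested 6 were higher and 18 lower. Osr1, a factor of connective tissue, was at 3.12, 0.492 and 1.37 CPM against 152, 144.5 and 124 CPM, while Klf5 (chosen after its values were seen) was at 778, 816.5 and 711 CPM against 149, 193 and 131.5 CPM. Of 26 complement and chemokine genes 2 were higher and 18 lower, and Cxcl12, Cxcl13 and Cxcl14 averaged 13.6, 3.83 and 5.44 CPM against 387, 290 and 182 CPM. Among 22 genes of lipid uptake 5 were higher and 9 lower, with Lpl, lipoprotein lipase, at 11.1 CPM against 328 CPM. Of 24 immediate early and stress genes 2 were higher and 12 lower, with the metallothionein gene Mt2 at 22.3, 15.3 and 21.3 CPM against 426, 419 and 504 CPM. Proliferation genes summed to 37.2 to 52.5 CPM against 76.4 to 87.7 CPM.

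Markers of the other sheath layers and of other cells were set beside these results. Pcolce2 and Cd34, epineurial genes outside the rule, were at 8.92, 7.87 and 6.18 CPM and at 24.5, 22.9 and 15.8 CPM in the perineurial cells, against 509, 517 and 514.5 CPM and 852, 775 and 606 CPM in the others. Of the 9 epineurial markers tested 8 were lower by 2-fold. Of 7 endoneurial markers 4 were lower and 1 higher, the exception being Smoc2. Pdgfra, a receptor of nerve fibroblasts, was at 65.6, 70.4 and 127 CPM against 220, 196 and 345 CPM. The rule kept cells with Ptprc, Pecam1 or Sox10 UMIs out of the perineurial cells and not out of the others, so markers of immune, endothelial and Schwann cells had to be lower in part. Immune markers summed to 372 to 522 CPM against 1285 to 2114 CPM, and against the Pi16/Clec3b cells none of 13 differed by 2-fold. Schwann markers summed to 1229 to 1484 CPM against 1187 to 1544 CPM. The perineurial sum rested on Cryab and Pmp22 (833 and 325 CPM), and the part of Schwann cell RNA in these results was not tested. Of 9 mesothelial markers only Krt19 and Gpm6a passed the filter on low counts. Lrrn4 and Muc16 had 0 UMIs in the perineurial cells, Upk3b had 1 and Wt1 had 2, so the defining genes of mesothelium were at or near 0 although Msln was high. The adipocyte gene Cfd was at 4.02, 1.48 and 1.37 CPM against 202, 52.3 and 1.76 CPM, so the difference rested on replicates 1 and 2. Hbb-bs was at 12.5, 9.35 and 0.343 CPM against 215.7, 177.5 and 0.293 CPM, and replicate 3 showed no such difference.

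The Sox9/Osr2 and the Pi16/Clec3b cells were also each compared on their own, with cells of any marker sum. Against the 509 Sox9/Osr2 cells, 1311 of 9673 genes differed by at least 2-fold at an adjusted p under 0.05 (13.6%), 545 higher (5.63%) and 766 lower (7.92%) in the perineurial cells. Abca6, Col15a1 and Slc1a3 were the largest of the named genes on the lower side, at -7.17 (SE 0.20), -7.04 (SE 0.13) and -6.39 (SE 0.24). On the higher side were Npnt at 3.01 (SE 0.19), Folr1 at 2.72 (SE 0.26) and Tagln at 2.55 (SE 0.13). The type II collagen gene Col2a1 averaged 0.509 CPM in the perineurial cells and 31.6 CPM in the Sox9/Osr2 cells. Ldhb was lower in the perineurial cells (-0.75, SE 0.08) and Slc16a1 higher by 1.95 (SE 0.10). Without the 179 Sox9/Osr2 cells that had a marker sum of 3 or more, 2367 of 9433 genes differed by 2-fold, 1240 higher and 1127 lower. Against the 4501 Pi16/Clec3b cells, 6488 of 12306 genes (52.7%) were called and 2792 (22.7%) also differed by 2-fold, 1184 higher (9.62%) and 1608 lower (13.1%). Smpd3, Osr1 and Pcolce2 were lower there, with log2 differences of -7.41, -7.06 and -6.52, and Ptgds, a prostaglandin synthase, was higher by 4.58 (SE 0.23), from a level of 0.852 CPM. The same perineurial libraries enter all of these comparisons, so they are not independent of each other.

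Perineurial cells also differed among themselves. Clustered on values centred within each library, they fell into 4 sub-clusters. Each was present in all 3 libraries, which centring favours because it takes out the mean of each library. Centring was chosen after the data were seen, because without it 442 of the 561 cells of replicate 3 (78.8%) fell into 1 sub-cluster, with 9 and 24 cells of replicates 1 and 2. The next largest without centring held 148, 267 and 8 cells of replicates 1, 2 and 3, and another held 119, 237 and 5. Clusters were defined by the same genes that describe them, so no test was made. The first sub-cluster held 583 cells, 42.9%, 40.3% and 34.9% of the perineurial cells in replicates 1, 2 and 3, and was led by contractile genes. Its cells held 1987 CPM of Acta2, the smooth muscle actin, against 81.8 CPM in the other perineurial cells, 4105 CPM of Tagln against 396 CPM, and 1185 CPM of Tpm2 against 160.5 CPM. Rbp4 followed the same pattern (448 against 66.0 CPM), and so did Myh10 (217.5 against 30.2 CPM). Acta2 was detected in 70.3% of these cells and in 20.7% of the other perineurial cells.

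The second sub-cluster held 536 cells (36.2%, 36.6% and 34.4%). Its leading genes included Pthlh, which encodes parathyroid hormone-related protein, Krt19, Crabp2, Tnni3 and Wrap53. Krt19 was at 741 CPM against 207.5 CPM, and Crabp2 at 220 CPM against 62.1 CPM. Acta2 was at 65.8 CPM in these cells, so Krt19 and Acta2 were high in different sub-clusters.

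The third sub-cluster held 279 cells (16.8%, 18.4% and 19.8%). Apod, apolipoprotein D, was at 6423, 6919 and 4084 CPM in the 3 libraries against 745 CPM in the other perineurial cells overall. Aldh1a3, an enzyme of retinoic acid synthesis, was at 205, 359 and 302 CPM against 13.7 CPM, and Pcp4l1, Epyc and P2ry14 were also among the leading genes. Kcnj13 was higher in these cells (716 against 287 CPM), and Msln (173 against 911 CPM) and Tagln (103, 64.0 and 137 CPM in the 3 libraries against 2536 CPM overall) were lower. Sox9, held down by the rule to at most 1 UMI per cell with Osr2, was still detected in 46.6% of them, at 116.5 CPM against 10.7 CPM in the rest. Their median mitochondrial share was 12.5%, against 4.08% in the first sub-cluster, and their median depth 3689 UMIs against 7774, and the part of either in the pattern was not tested. The remaining group of 104 cells (4.13%, 4.79% and 10.9%) was left unnamed, since its leading genes belong to immune and Schwann cells, among them Cd74, Retnla and Lyz2. It had a median of 2964 UMIs.

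**Figure D4:**
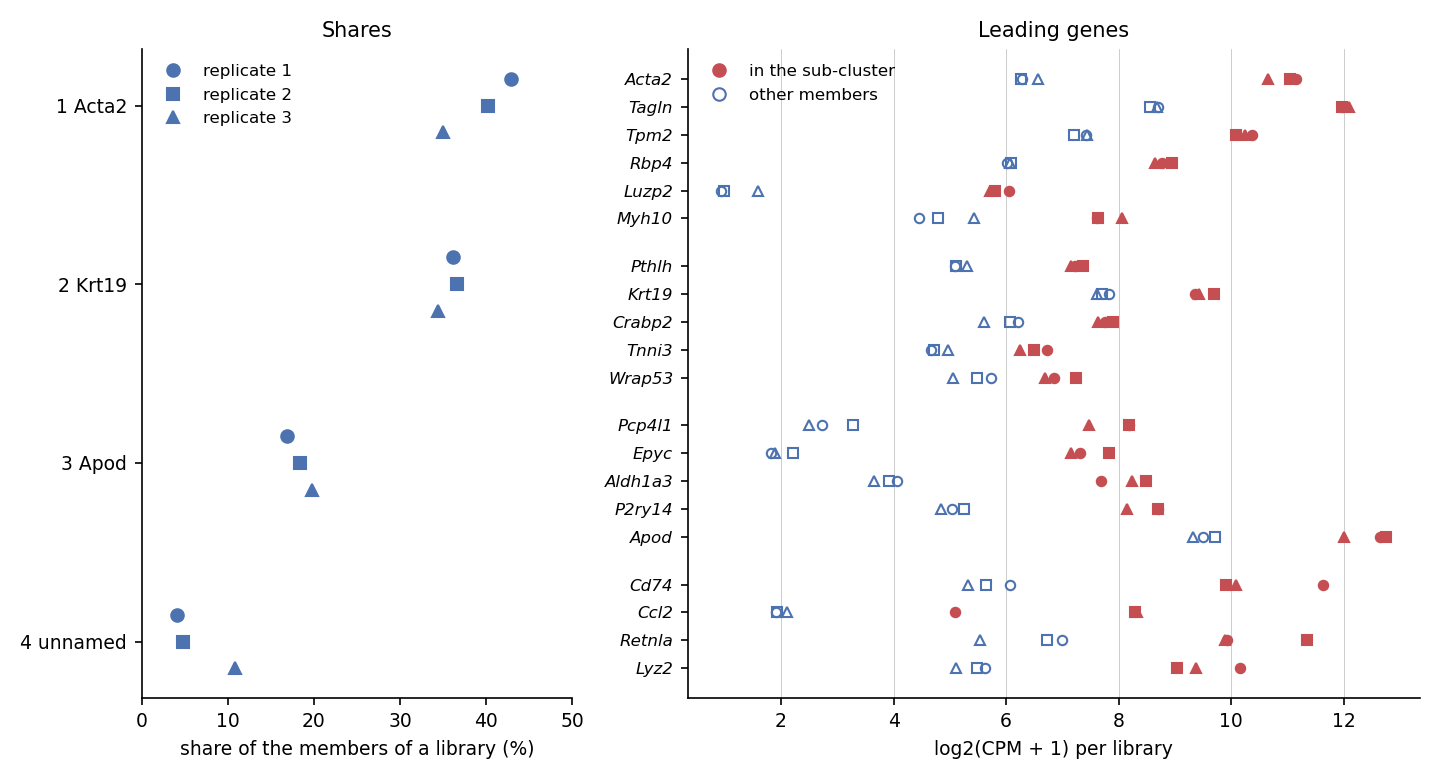
Left, share of the perineurial cells of each P60 library (x axis, percent) in the 4 sub-clusters. Right, level of leading genes of each as log2(CPM + 1) (x axis) in the sub-cluster (filled) and in the other perineurial cells (open), with circles, squares and triangles for replicates 1, 2 and 3; Apod was at 5965 CPM in the third sub-cluster and at 745 CPM outside it, and Ccl2 in the fourth was low in replicate 1 (33.0 CPM).

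The same rule was applied to P1, and whether it picks the same layer there was not tested. At P1 it found 66, 64 and 58 cells, which were 2.42%, 1.99% and 1.79% of fibroblast-gene cells, a mean of 2.07% ± 0.320 (SD, n = 3 libraries). At P60 the shares were 12.4%, 19.4% and 20.1%, a mean of 17.3% ± 4.23. The ages did not overlap and differed by 15.2 percentage points. The share is made of the UMIs the rule used, so it is given as a description, with no test. With all cells thinned to 1500 UMIs the shares were 0.646%, 0.289% and 0.503% at P1 and 19.5%, 25.0% and 23.6% at P60. Many P1 cells passed narrowly. With at least 2 of the 4 marker genes required, 40, 42 and 35 P1 cells remained, against 315, 626 and 549 P60 cells. With a marker sum of at least 5, 22, 23 and 16 P1 cells remained, against 312, 616 and 518 P60 cells.

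**Figure D5:**
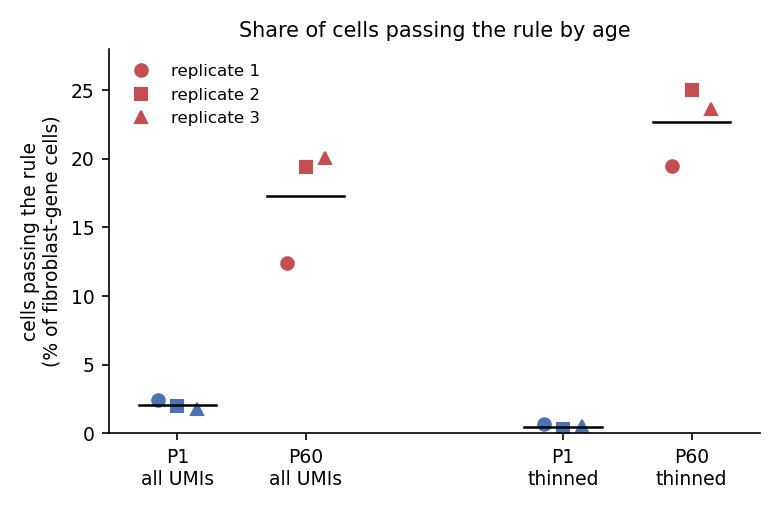
Cells passing the rule as a percentage of fibroblast-gene cells (y axis), per library (points) with the mean (line), at P1 and P60, with all UMIs and after thinning each cell to 1500 UMIs. The 3 P60 libraries lie at 12.4% to 20.1% and the 3 P1 libraries at 1.79% to 2.42% with all UMIs.

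The P1 cells that passed the rule held less of the other markers. Their Cldn1 level was 435, 465 and 336 CPM, below the 474 to 801 CPM of the P60 libraries, while Slc2a1 was at 105.5 CPM, Itgb4 at 53.6 CPM and Msln at 27.7 CPM on average. No Kcnj13 UMI was found in the 188 cells, which allows a share of up to 1.60% of cells with a UMI. They are therefore called the P1 cells passing the rule. Age was compared in these cells and the P60 perineurial cells with edgeR's quasi-likelihood test over the 6 libraries. Each age was its own set of libraries, so age and library preparation cannot be told apart.

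Of 9532 genes, 3825 (40.1%) were called between the ages at an adjusted p under 0.05, 1990 higher (20.9%) and 1835 lower (19.3%) at P60, and 2674 (28.1%) also differed by 2-fold, 1457 higher (15.3%) and 1217 lower (12.8%). Kcnj13 was at 364.5, 386 and 253 CPM at P60 and at 0 in every P1 library. That is at least 153.6-fold higher when P1 is set to a floor of 3 counts over the group. Other genes with no UMI in the P1 cells were the carboxypeptidase-like Cpxm2, at least 68.7-fold higher, the sterol hydroxylase Cyp27a1, at least 36.4-fold, and the laminin-related netrin Ntn4, at least 28.9-fold. Ntn4 was uneven at P60, at 33.0, 31.5 and 132.5 CPM. Mybph, Fam107a and Tmtc1 were at least 25.4, 24.6 and 24.3-fold higher. Kcnj13 and these other genes without a P1 UMI passed the count filter through P60 alone, so their values are given as a description.

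On the lower side, Dlk1, a Delta-like protein of immature mesenchyme, had 6 UMIs at P60 against 3427 at P1. Its level was 2543, 2195 and 2794 CPM at P1 and 1.79, 0.246 and 0.343 CPM at P60. Cell division genes followed. The 12 proliferation genes that passed the filter, several of them at or near 0 UMIs at P60, summed to 37.4 to 52.9 CPM at P60 and 1047 to 1943 CPM at P1. The mitotic genes Ube2c, Pimreg and Aurkb had no UMI at P60, at least 443, 237 and 156-fold lower by the same floor, and passed the count filter through P1 alone. Mki67, Cdk1 and Ccnb2 each had a single UMI at P60, against 135, 174 and 160 UMIs at P1, as did Kera, the corneal proteoglycan keratocan, against 144 UMIs. Dlk1, Mki67, Cdk1, Ccnb2 and Kera also passed the count filter through P1 alone. The values of all these named genes are therefore given as a description. Of 40 matrix genes 25 were lower by 2-fold and 6 higher, with Col14a1 at 521 ± 54.8 CPM at P1 and 7.09 ± 0.825 CPM at P60.

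Of 21 contractile and cytoskeletal genes tested 13 were higher by 2-fold and none lower, and Tagln, at 104 ± 7.13 CPM in the P1 cells, rose to 2249 ± 75.4 CPM (4.54 on the log2 scale, edgeR adjusted p = 1.5e-13). Lists of junction and basal lamina genes were mixed, with 10 higher and 6 lower of 31 and 8 higher and 5 lower of 23 by 2-fold. Among single genes, Mpzl2 rose from 23.7 ± 7.92 to 290 ± 23.6 CPM, Stra6 from 7.85 ± 10.1 to 197 ± 31.8 CPM and Npnt from 5.86 ± 2.40 to 123 ± 5.53 CPM. Cldn22 and Abcb1a, chosen after their values were seen, were at 4.31, 7.01 and 10.7 CPM and at 0, 2.34 and 0 CPM in the P1 libraries. Of 14 hedgehog genes tested 4 were higher and 3 lower by 2-fold. Gas1 was higher at P60 by 1.31 (SE 0.25). Cdon had 10 UMIs at P1, and its library values overlapped between the ages. For Ptch1 and Foxc2 no difference was called. Ptch1 was at 488 ± 52.4 CPM in the P1 cells and 495 ± 164 CPM at P60 (log2 change 0.13, SE 0.18, edgeR adjusted p = 0.62), and Foxc2 at 125 ± 21.5 and 127 ± 32.4 CPM (0.13, SE 0.22, edgeR adjusted p = 0.66). Immune markers moved with age too, with summed levels at P60 of 348 to 495 CPM against 21.6 to 37.4 CPM at P1, and their part in the age differences was not tested.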

How the data were processed

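Whole-number UMI counts per gene and barcode were deposited for 3 P1 and 3 P60 libraries. The libraries were made with 10x 3′ v2 chemistry, and the submitters' processing notes name Cell Ranger 2.0.2 and the mouse build GRCm38.p5, while the study's methods name a human build. The gene identifiers are mouse, and coordinates are GENCODE annotation of GRCm38. The strand setting of the counting is not given in the sources used here. No doublet caller was run; the limit of 5000 detected genes was the only step against doublets, and free RNA was not subtracted.

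Counts were summed per library and cell group, scaled as CPM of that group's total, filtered with filterByExpr, normalised by TMM and tested with edgeR 4.0.16 in R 4.3.3 (quasi-likelihood, Benjamini-Hochberg), with library as a block within P60 and without a block between ages. The 13 genes of the rule stayed in the library sizes and out of the tests. DESeq2 1.42.0 was an alternative. Genes close in sequence to another copy, or overlapping another gene on the same strand (23 of 136 named genes), may share reads. Clustering used leidenalg 0.10.2 on 10 principal components of 2839 variable genes with 20 neighbours at resolution 0.4. Fits were tested on simulated data: for the P60 comparison with the other fibroblast-gene cells, 73.7% of 95 genes changed 2-fold and 99% of 97 changed 4-fold were recovered, and 6 of 13106 unchanged genes were called. For the comparison of ages the shares were 50.5% of 91 and 98.9% of 88, with 9 of 9028 unchanged genes called. The simulated counts had a common mean profile, the same dispersion for every gene and no library effect. These rates therefore need not hold for the real counts. Replicates are separate suspensions of pooled mice.

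Named genes were the 5 markers, the 15 highest and 10 lowest log2 differences among called genes with at least 50 CPM, up to 4 genes per list with at least 20 CPM, the 8 highest and 8 lowest between ages, 6 leading genes per sub-cluster and the layer markers; other genes are marked as chosen after their values were seen. The rule for the cells, the gene lists and the tests were chosen with earlier results of these data known. Alternatives were another size factor, no count filter, other thresholds of the rule, leaving out libraries, and leaving out cells over 10% mitochondrial UMIs or under 3000 UMIs. Intervals cover counting error only. Some genes that met these rules are not reported here.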

Additional observations from a re-analysis of the deposited data

How the results depend on the processing

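Of the named genes, 119 compared with the other fibroblast-gene cells gave 1666 values under the alternatives. Of these, 1652 kept direction and call, 11 were no longer called, and 3 reversed. The 3 that reversed were the haemoglobin genes Hbb-bs (0.037), Hba-a1 (0.51) and Hba-a2 (0.13, log2) once other cells holding Sox10, Pecam1 or Ptprc UMIs were left out, a step that takes blood-vessel and immune cells out of the comparison. The 16 genes named between ages kept direction and call in all 240 values. Each of them had at most 6 UMIs at 1 of the ages and passed the count filter through the other age alone. Their calls could hardly change, so this says little of how other age differences depend on the processing.

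With no replicate block the count of called genes went from 7304 to 4597 for the other fibroblast-gene cells. It went from 2850 to 1596 for the Sox9/Osr2 cells and from 6488 to 4149 for the Pi16/Clec3b cells. DESeq2 called 5145, 1573 and 4404 genes in the same order of comparisons. Against the comparison cells with a marker sum under 3, the count of called genes was 7925, 3847 and 7397 in that order. Between ages it was 2106 in place of 3825 with a marker threshold of 5, where P1 replicate 3 was left out because 16 of its cells remained; the cause was not tested. The fit with a replicate block between ages called 3843 genes; same-numbered P1 and P60 libraries correlated between -0.03 and 0.003, so the numbers do not pair them. Leaving out 1 library at a time gave 6421 to 7229, 2283 to 2698, 5651 to 6492 and 2869 to 3829 genes in the same order of comparisons, and a difference in share of 13.8 to 17.7 points. Centred clustering at resolution 0.2 gave 3 sub-clusters and at 0.8 gave 6. With library size as the only scaling, the all-gene median shifted from -0.02 to 0.09 against the Pi16/Clec3b cells and from 0.02 to -0.08 between ages.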

Other observations

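Several genes better known from striated muscle were among those higher in the perineurial cells. Tnnt3, the troponin T of fast skeletal muscle, was at 177, 184 and 208 CPM against 43.3, 59.1 and 48.2 CPM in the other P60 fibroblast-gene cells (log2 difference 1.89, SE 0.08). Mybph, a myosin-binding protein, was at 67.4, 63.7 and 36.4 CPM against 10.2, 6.22 and 6.74 CPM, and Tnnt2, cardiac troponin T, at 62.5, 56.1 and 51.8 CPM against 7.86, 12.9 and 6.55 CPM. Against the Sox9/Osr2 cells alone, Tnnt3 and Tnnt2 were higher by 1.98 and 1.375. Mybph differed from those cells by only 0.05 (SE 0.19) and was not called. Tnni3, cardiac troponin I, led the Krt19 sub-cluster at 88.3 CPM against 26.7 CPM. Genes that define muscle fibres were at or near 0 in the same cells: Ckm and Myh4 had 0 UMIs, and Acta1 and Mylpf had 6 and 9 UMIs over 1502 cells.

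Hcn4, a pacemaker channel gene, and Stmn2, a microtubule regulator of neurons, were noticed after their values were seen because they were nearly missing from the sub-cluster led by Apod, Pcp4l1 and Epyc, at 0.896 and 14.3 CPM against 150 and 334 CPM in the other perineurial cells. Postn and Rspo1 followed the same pattern (16.1 and 6.27 CPM against 519 and 310.5 CPM).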
